A study of Mus musculus with 12 samples.

Results

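The effect of poricoic acid A on the hippocampal transcriptome of stressed mice was examined by setting the 4 libraries of the group Treatment against the 4 of the group Model, 8 of the 12 libraries of the study, with group membership taken from the sample labels. All libraries came from male C57BL/6 mice of 6 to 8 weeks that were acclimated for 7 days and had shown a preference for sucrose. Model mice received saline and 28 days of chronic unpredictable mild stress. Treatment mice went through the same 28 days and from day 15 on were given poricoic acid A by gavage, 20 mg/kg once a day for 14 days. Control mice, with saline and no stress, are given as a reference level. Their libraries also enter the count filter, the scaling and the estimate of the spread, but not the contrast. Poly(A) RNA was sequenced, and the deposited table lists 78298 genes, of which 18600 had enough reads to be tested. Whether the libraries of a group come from different animals is not in the labels, so p-values speak only for the scatter among these libraries.

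Poricoic acid A is a triterpenoid of the fungus Poria cocos, which is used in traditional medicine. Chronic mild stress is a rodent model of depression in which mild stressors change from day to day. The hippocampus is built from the granule cells of the dentate gyrus, which send mossy fibres to CA3, and from pyramidal cells of CA3, CA2 and CA1, with interneurons, glia and vessels between them. The neocortex lies over it and the choroid plexus and ependyma of the ventricles border it, so a dissected hippocampus can carry RNA of these neighbours. In tissue RNA, fewer cells of a type and less RNA per cell cannot be told apart.

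Estimated counts of the 8 libraries added up to between 18169849 and 23665426. Markers of the labelled tissue were present: 24 of 24 dentate gyrus and 29 of 29 CA2 and CA3 marker genes passed the count filter, as did the 18 of 20 CA1 markers that the table lists under the symbols used. Some libraries stood apart in RNA of other tissue. Cbln3, a synaptic organiser of cerebellar granule cells, was at 27.3, 7.22, 0.792 and 3.52 CPM (the count scaled to the effective size of its library) in Model replicates 1 to 4 and at 0.505 to 0.710 CPM in Treatment. Gabra6, the GABA receptor subunit of the same cells, was at 10.0, 2.699, 0.0466 and 2.32 CPM in Model and at 0 to 0.0862 CPM in Treatment; it was chosen after its values were seen. Of a list of 15 cerebellar genes, also chosen after the data were seen, 12 were tested, and their summed level was 31.0 to 164 CPM in Model and 50.6 to 61.1 CPM in Treatment. Cbln3, Gabra6 and Ppp1r17, an inhibitor of protein phosphatases found in Purkinje cells, passed as lower in Treatment, and none of the 3 passed without Model replicate 1. Ttr, the transthyretin made by choroid plexus, was at 386, 1254, 976 and 418 CPM in Treatment replicates 1 to 4 and at 497 to 725 CPM in Model. Treatment replicates 2 and 3, the pair with the higher Ttr within Treatment, carry library names (1631 and 1636) apart from those of the other libraries (1868 to 1898). High Ttr was not particular to that pair. Control replicates 1 to 3, named 1898, 1868 and 1893, were at 1513, 1853 and 2015 CPM. Summed choroid plexus markers (31 of 31 tested) were 1137 to 2814 CPM in Treatment, 1337 to 1848 CPM in Model and 1581 to 4556 CPM in Control. With the choroid plexus score of each library as a covariate 353 genes passed, and with the cerebellum score 495.

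Poricoic acid A was accompanied by many small differences. In edgeR, 350 of 18600 genes (1.88%) passed a Benjamini-Hochberg adjusted p of 0.05, 219 higher in Treatment (1.18%) and 131 lower (0.704%). Most were modest: 296 of the 350 changed by less than 1.5-fold, 17 rose and 4 fell by at least 2-fold, and the median log2 fold change was 0.40 among genes that rose and -0.34 among those that fell. Across all 18600 genes the median was 0.00 (0.0018) and 50.35% had a positive value. Among the genes that rose 207 were protein-coding and 11 were long noncoding RNAs, and among those that fell 126 and 4. The 4 Treatment libraries lay wholly above or below the 4 Model libraries in 335 of the 350, against 1767 of all genes tested (9.5%), 956 above (5.14%) and 811 below (4.36%). Calls depended on single libraries. Without Model replicate 2 or Model replicate 3, 0 genes passed in edgeR (2631 and 2812 at an unadjusted p under 0.05, against 3436 with all libraries), without Treatment replicate 2 there were 52 and without Treatment replicate 4 there were 116. With all libraries the count was 318 in limma-voom and 1099 in DESeq2. With only the 8 libraries compared it was 137 in edgeR, of 17904 genes tested. The sign held for 347 of the 350 genes under every alternative in which the gene was tested. Not every gene was tested in each alternative. The size of the change varied among them: Prox1 ranged from -0.57 to -0.02, the latter with the dentate score to which it belongs, and Igfn1 from 1.05 to 3.0.

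**Figure D1:**
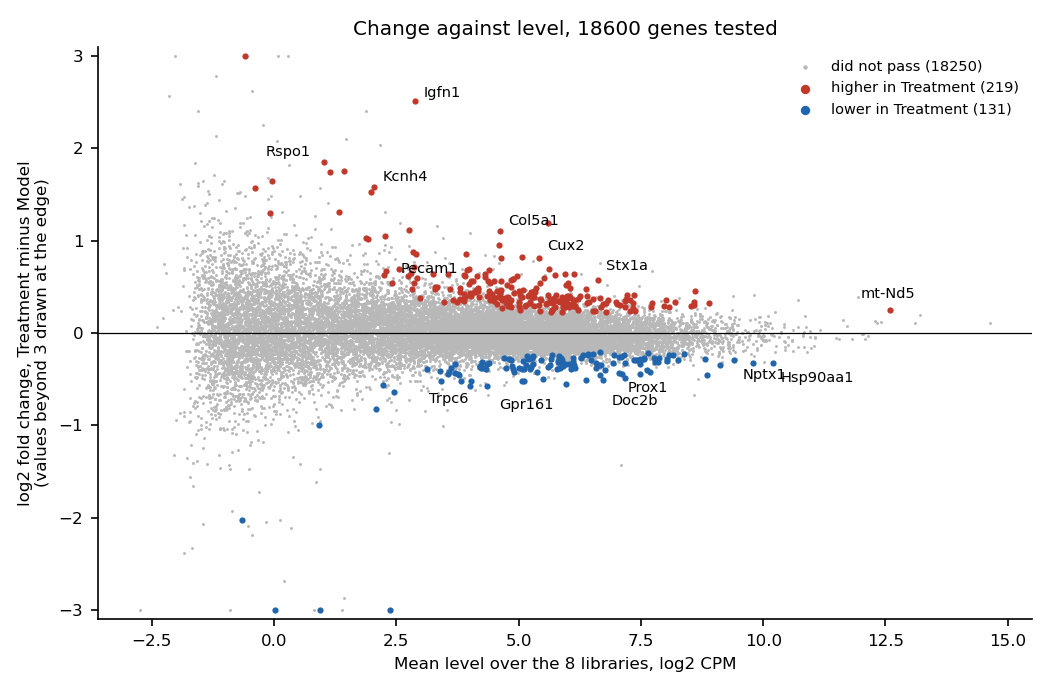
Change against level for the 18600 genes tested: the x axis is the mean level over the 8 libraries in log2 CPM, the y axis the log2 fold change of Treatment over Model, and each point is a gene. The 219 genes that rose and the 131 that fell lie mostly within 1 log2 unit of 0, with Igfn1 at 2.52 and Rspo1 at 1.85 among the exceptions.

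Genes that rose and fell differed in base composition. The GC content of the longest annotated transcript had a median of 56.97% among the genes that rose and 44.51% among those that fell, against 49.44% over all genes tested. Transcripts of the genes that rose had a median length of 3413 bases, those of the genes that fell 4222 bases, and those of all genes 3183 bases. Among the 4340 genes richest in GC 161 rose and 8 fell, and among the 4340 poorest 9 rose and 68 fell. A trend of all genes with GC content ran through the libraries in part along the groups. The difference between the medians of the 4340 richest and the 4340 poorest genes, in log2 units around the mean of the 12 libraries, was -0.007, -0.156, -0.045 and -0.146 in Model replicates 1 to 4 and -0.068, 0.136, 0.238 and 0.12 in Treatment. Treatment replicate 1 thus lay among the Model libraries. With these trends and those of transcript length removed, 276 genes passed, 125 higher and 151 lower, and 155 of the 350 were among them. Where a gene is described below and this ends its call, the value with the trends removed is given with its group.

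**Figure D2:**
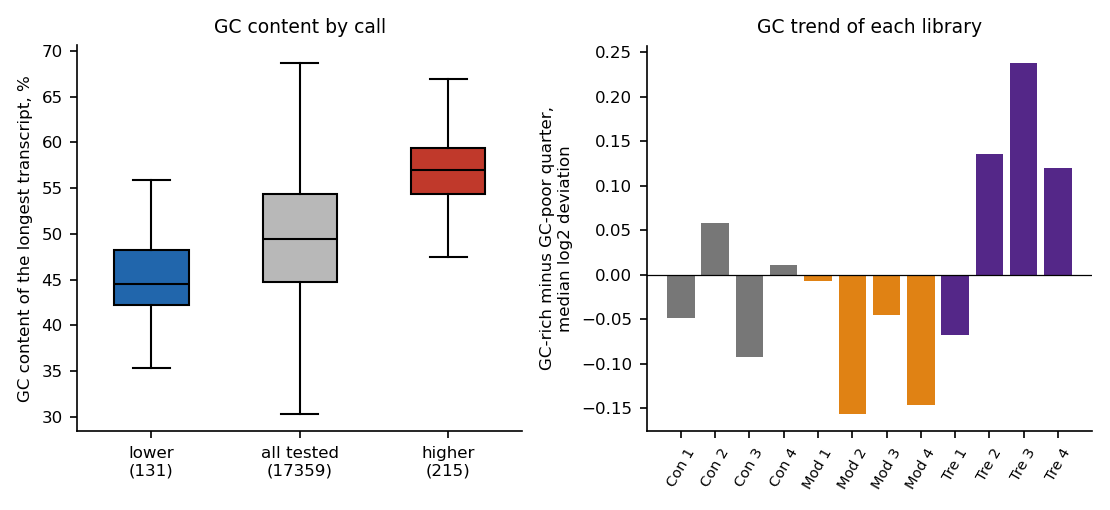
Left, GC content of the longest transcript in percent for genes that fell, all genes tested and genes that rose (boxes: quartiles and median; whiskers: 1.5 times the interquartile range). Right, for each of the 12 libraries, the median log2 deviation of the 4340 GC-richest genes minus that of the 4340 GC-poorest; 3 of 4 Treatment libraries are above 0 and the 4 Model libraries are below it.

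Genes that mark granule cells of the dentate gyrus were lower after poricoic acid A. Of 24 markers 23 were below 0 in fold change, and the median was -0.30. Of the 24, 5 fell, 0 rose and 19 did not pass (20.83% called, all lower). Among all genes 1.88% were called, and 0.704% were called lower. In 10 of the 24 the Treatment libraries lay wholly below the Model libraries (4.36% of all genes did), and in 0 wholly above (5.14% of all genes).

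Trpc6 (chr9:8544143-8680742 in the deposited table, build GRCm39), a calcium-permeable cation channel, was at 24.2, 22.2, 26.0 and 25.5 CPM in Model and at 17.9, 17.1, 16.9 and 13.8 CPM in Treatment. The groups did not overlap, and Control libraries stood at 16.1 to 20.5 CPM, on the side of Treatment. Its log2 fold change was -0.58 ± 0.10 (SE, n = 4 per group; adjusted p = 0.0174). Prox1 (chr1:189850232-189902911), the transcription factor that keeps granule cell identity, was at 136, 156, 175 and 146 CPM in Model and at 125, 118, 98.2 and 112 CPM in Treatment. Again no Treatment library reached the lowest Model library, and the change was -0.43 ± 0.10 (adjusted p = 0.0332). Control libraries, at 117 to 154 CPM, overlapped both groups.

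Sema5a (chr15:32244956-32563704), a semaphorin that guides axons and dendrites, was at 152, 171, 202 and 153 CPM in Model and at 128, 135, 106 and 113 CPM in Treatment (-0.49 ± 0.10, adjusted p = 0.0259). C1ql3, a secreted synaptic organiser, was at 92.0, 100.2, 104 and 94.8 CPM in Model and at 80.7, 73.8, 78.4 and 85.7 CPM in Treatment (-0.30 ± 0.06, adjusted p = 0.0305). Calb1 encodes calbindin, a calcium buffer of mature granule cells that upper neocortical neurons also use. It was at 128 to 142 CPM in Model and at 90.9 to 117 CPM in Treatment (-0.33 ± 0.07, adjusted p = 0.0341). In all 3 genes the groups were apart. Control libraries were above Treatment and overlapped Model in Sema5a (145 to 179 CPM) and C1ql3 (87.2 to 98.9 CPM). In Calb1 they were within the range of Treatment (107 to 115 CPM). Model replicate 3 was the highest of the Model libraries in Trpc6, Prox1, Sema5a and C1ql3, and it also had the highest summed level of the 24 markers, 2539 CPM. The sum was 2124 to 2226 CPM in the other Model libraries and 1812 to 2030 CPM in Treatment. In Control it was 2059 to 2340 CPM, above Treatment and overlapping Model.

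With GC and length trends removed Calb1 had -0.27 (adjusted p = 0.136) and no longer passed, while 7 dentate markers fell in all. The number that fell was 2 without Treatment replicate 2, 3 without Treatment replicate 4 and 1 without Treatment replicates 2 and 3 together. It was 0 without Model replicate 2 or 3, where no gene passed over all. Trpc6, for one, had -0.62 without Model replicate 2 (adjusted p = 0.0659) and -0.55 without Model replicate 3 (adjusted p = 0.0705). The median of the list stayed between -0.32 and -0.23 whichever single library was left out. With the neocortical score as a covariate it was -0.12 and no member passed.

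Pyramidal cell markers of the CA fields had smaller median shifts. Of 18 CA1 markers 14 were negative, with a median of -0.16, and 1 fell (5.56% called, against 1.88% of all genes). This was Gpr161 (chr1:165123358-165149366), a ciliary receptor that restrains Hedgehog signalling, at 64.5, 81.1, 78.3 and 72.8 CPM in Model and 47.9, 50.5, 59.4 and 44.3 CPM in Treatment (-0.55 ± 0.12, adjusted p = 0.0331). Its groups did not overlap. With GC and length trends removed Gpr161 had -0.53 (adjusted p = 0.0528), and with the neocortical score as a covariate -0.24. The summed CA1 level did overlap, at 1130 to 1284 CPM in Model and 1043 to 1290 CPM in Treatment. In the list for CA2 and CA3, 20 of 29 genes were below 0 and the median was -0.15. There 2 fell and 2 rose (13.79% called, against 1.88% of all genes). The summed level of this list did not overlap, at 3168 to 3353 CPM in Model and 2924 to 3106 CPM in Treatment. Treatment lay wholly below Model in 5 of the 29 (4.36% of all genes) and wholly above in 2 (5.14% of all genes). Nptx1, a pentraxin that clusters AMPA receptors, fell from 745 ± 52.8 to 607 ± 17.6 CPM (SD; -0.30 ± 0.06, adjusted p = 0.0330), and Cpne4, a calcium-dependent membrane-binding protein, from 107 ± 8.05 to 85.4 ± 2.54 CPM (-0.33 ± 0.07, adjusted p = 0.0363). Ptpn5, the striatal-enriched phosphatase STEP, which also acts on glutamate receptors, rose from 115 ± 6.33 to 142 ± 8.60 CPM (0.31 ± 0.06, adjusted p = 0.0246). Coch, a secreted matrix protein, rose from 5.31 ± 0.722 to 9.61 ± 2.21 CPM (0.86 ± 0.19, adjusted p = 0.0342). The 4 genes thus split within 1 marker list. With the neocortical score as a covariate the CA1 median was 0.03 and the CA2 and CA3 median was 0.00. Mossy cell markers (12 tested) had 0 members past the threshold in edgeR or DESeq2 (2 at an unadjusted p under 0.05 in edgeR), a median of -0.03 and, for the member of smallest p, Trps1, a value of -0.17 (adjusted p = 0.183).

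**Figure D3:**
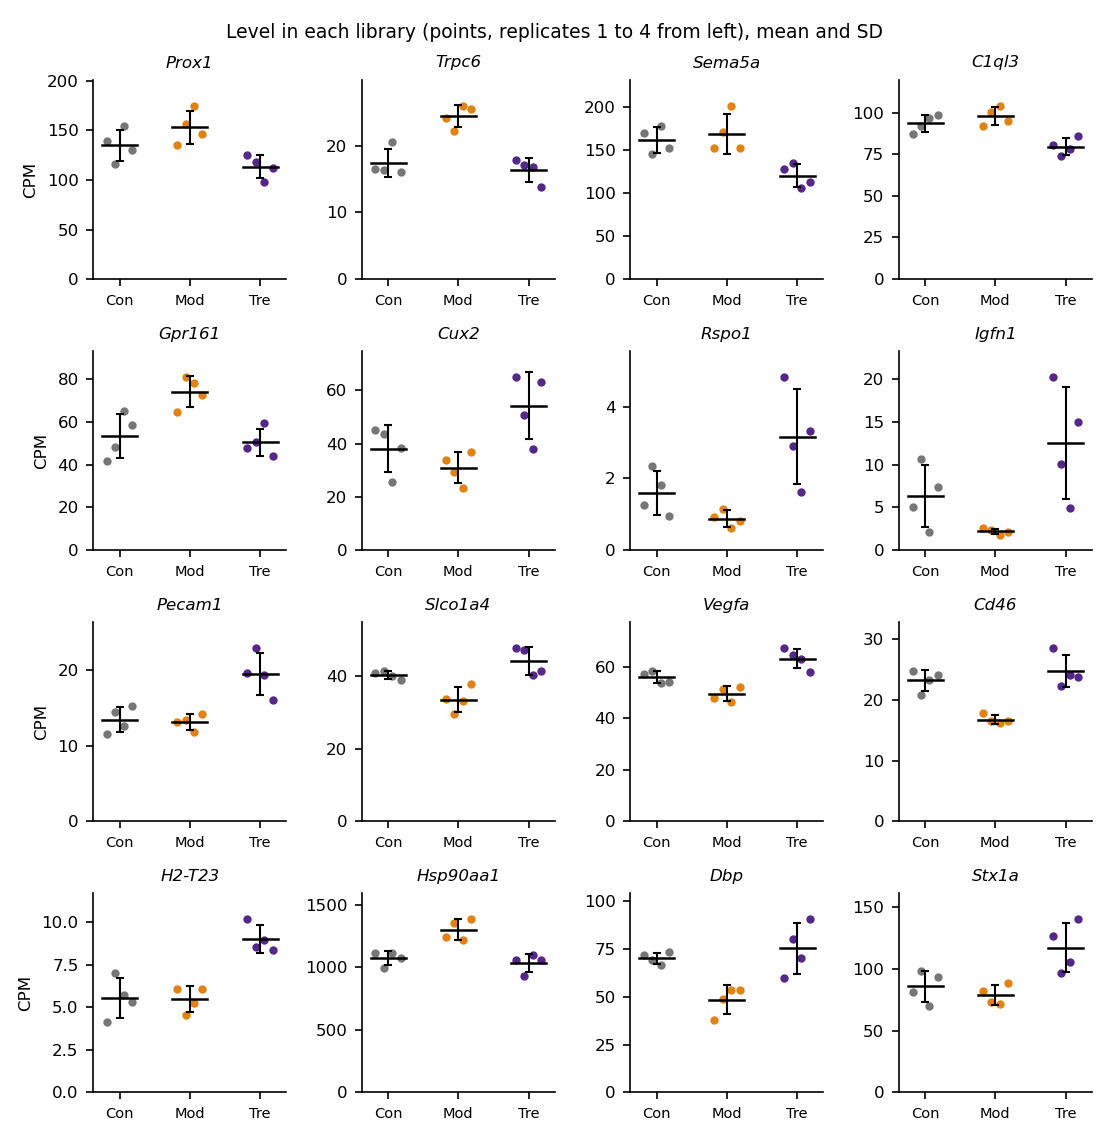
Level in CPM of 16 genes in each library of Control (Con), Model (Mod) and Treatment (Tre); points are libraries, bars the mean and SD of 4, and every y axis starts at 0. In each of the 16 genes the Model and Treatment points do not overlap, with Treatment below Model in Prox1, Trpc6, Sema5a, C1ql3, Gpr161 and Hsp90aa1 and above it in the other 10.

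Several of the largest increases were in genes whose level followed neocortical markers from library to library. Of 36 neocortical layer genes tested, out of 37 listed, 30 were above 0 and the median was 0.27. Of these genes 4 rose, 1 fell (Calb1, also a dentate marker) and 31 did not pass (13.89% called, against 1.88% of all genes). Their summed level was 1516 to 1691 CPM in Model and 1646, 1744, 1953 and 2042 CPM in Treatment replicates 3, 2, 1 and 4. The part of neocortical tissue in the results was not tested. The neocortical score was -0.44 to -0.017 in Model and 0.023 to 0.422 in Treatment. The dentate score was 0.053 to 0.297 in Model and -0.212 to -0.084 in Treatment. Neither score overlapped between the groups, so a fit with it also takes out part of any group difference and cannot separate the 2. With the neocortical score of each library in the model 2 genes passed over all, Cbln3 and Gabra6 (1847 at an unadjusted p under 0.05). With the dentate score 0 passed (826 at an unadjusted p under 0.05).

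Igfn1, which encodes a muscle protein with immunoglobulin and fibronectin domains, showed the largest increase among named genes at 1 CPM or more whose groups were apart. It was at 2.54, 2.31, 1.77 and 2.15 CPM in Model and at 20.3, 10.1, 4.95 and 15.0 CPM in Treatment, a change of 2.52 ± 0.43 (adjusted p = 0.0175). All Treatment libraries were above all Model libraries, and within Treatment replicates 1 and 4 were highest and replicate 3 lowest. Control libraries ranged from 2.15 to 10.7 CPM and overlapped both groups. Rspo1, a secreted enhancer of Wnt signalling, was at 0.934, 1.16, 0.606 and 0.815 CPM in Model and at 4.82, 2.89, 1.62 and 3.32 CPM in Treatment (1.85 ± 0.35, adjusted p = 0.0217). Cux2, a transcription factor of upper cortical layers, was at 33.9, 29.4, 23.4 and 36.8 CPM in Model and at 65.0, 50.9, 37.8 and 63.3 CPM in Treatment (0.81 ± 0.18, adjusted p = 0.0366). Igfn1, Rspo1 and Cux2 had the same order of replicates within Treatment, and in each the groups did not overlap.

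Lamp5, a membrane protein of cortical neurons and of a class of interneurons, was at 33.4 to 40.7 CPM in Model and at 74.2, 49.7, 40.4 and 78.2 CPM in Treatment (0.69 ± 0.16, adjusted p = 0.0430); its groups overlapped at Treatment replicate 3. Whrn, the scaffold protein whirlin, was at 42.4, 32.7, 31.8 and 33.8 CPM in Model and at 48.1, 61.4, 47.8 and 48.1 CPM in Treatment (0.54 ± 0.11, adjusted p = 0.0283). Its groups were apart, and replicate 2, not 1 or 4, was its highest Treatment library. Replicates 1 and 4 were again high and replicate 3 low in Kcnh4, a voltage-gated potassium channel, at 1.77 to 2.49 CPM in Model and 8.87, 4.66, 3.99 and 7.32 CPM in Treatment (1.58 ± 0.29, adjusted p = 0.0199). Rasgef1c, an exchange factor of Ras-like GTPases, changed by 1.53 ± 0.29 (adjusted p = 0.0229), Dkkl1, related to the Wnt inhibitor Dickkopf, by 1.74 ± 0.36 (adjusted p = 0.0277) and Col24a1, a fibrillar collagen, by 1.76 ± 0.42 (adjusted p = 0.0438). Of these genes 4 no longer passed with GC and length trends removed: Cux2 had 0.76 (adjusted p = 0.0554), Lamp5 0.69 (adjusted p = 0.0634), Whrn 0.37 (adjusted p = 0.102) and Col24a1 1.75 (adjusted p = 0.0535). Rspo1 and Cux2 are members of the list that gives the neocortical score, so a fit with that score takes part of their own values out; Igfn1 and Kcnh4 are not members. With the neocortical score as a covariate Igfn1 had 1.05 (adjusted p = 0.465), Rspo1 1.17 (adjusted p = 0.448), Kcnh4 0.71 (adjusted p = 0.485) and Cux2 0.12 (adjusted p = 0.760). Without Treatment replicates 2 and 3 together, 8 neocortical genes rose and Igfn1 had 3.0 (adjusted p = 0.00674). Without Model replicate 2 or 3, where no gene passed over all, Igfn1 had 2.54 (adjusted p = 0.0780) and 2.43 (adjusted p = 0.0757).

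Genes of blood vessels were on balance higher in Treatment, with a small number past the threshold. Brain endothelial cells form the blood-brain barrier through tight junctions and selective transporters, and pericytes and smooth muscle cells wrap them. Of 45 endothelial and barrier genes 41 were above 0 in fold change and the median was 0.30. Of the 45, 3 rose, 0 fell and 42 did not pass (6.67% called, all higher). Among all genes 1.88% were called, and 1.18% were called higher. In 11 of the 45 Treatment lay wholly above Model, as it did in 5.14% of all genes. The summed level was 1283 to 1344 CPM in Model and 1411 to 1619 CPM in Treatment, without overlap, and it was highest in Treatment replicates 2 (1619 CPM) and 3 (1516 CPM).

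Pecam1 (chr11:106545043-106606091), the adhesion molecule CD31 of endothelial junctions, was at 13.1, 13.4, 11.7 and 14.2 CPM in Model and at 19.5, 22.9, 19.3 and 16.03 CPM in Treatment, a change of 0.57 ± 0.11 (adjusted p = 0.0256). Control libraries lay with Model, at 11.6 to 15.2 CPM. Slco1a4, a transporter of organic anions at the barrier, was at 33.9, 29.6, 33.2 and 37.8 CPM in Model and at 47.7, 47.2, 40.3 and 41.6 CPM in Treatment (0.39 ± 0.08, adjusted p = 0.0246), with Control at 39.0 to 41.5 CPM, above Model and overlapping Treatment. Slc7a5, which carries large neutral amino acids, was at 53.4 to 62.7 CPM in Model and at 65.9 to 75.7 CPM in Treatment (0.31 ± 0.07, adjusted p = 0.0370). None of the 3 overlapped between the groups.

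The tight junction genes among the list differed little between the groups. Cldn5 had 0.04 ± 0.12 (adjusted p = 0.892), Ocln -0.07 ± 0.11 (adjusted p = 0.810) and Tjp1 0.02 ± 0.09 (adjusted p = 0.932). Of 28 pericyte and smooth muscle genes 25 were positive, with a median of 0.31, and 2 rose (7.14% called, against 1.88% of all genes). Slc6a20a, a proline transporter, rose from 12.9 ± 0.915 to 17.0 ± 1.03 CPM (0.39 ± 0.08, adjusted p = 0.0259). Myl9, a myosin light chain of smooth muscle, rose from 5.95 ± 0.646 to 8.66 ± 0.861 CPM (0.54 ± 0.13, adjusted p = 0.0458). With the neocortical score as a covariate the median of the endothelial list was 0.29 and that of the pericyte list 0.23, with no member past the threshold. With GC and length trends removed 6 endothelial genes rose, but Slc7a5 had 0.20 (adjusted p = 0.0972) and Myl9 0.47 (adjusted p = 0.0713), and neither passed. Without Treatment replicate 2, or without Treatment replicates 2 and 3 together, no member of either list passed, and the endothelial median without that pair was 0.20. Without Model replicate 2 or 3 no gene passed over all. Pecam1 had 0.57 without Model replicate 2 (adjusted p = 0.0950) and 0.52 without Model replicate 3 (adjusted p = 0.0969).

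Ligands of the VEGF family rose and a coreceptor fell. VEGF ligands bind receptor kinases of endothelial cells, and neuropilins hold the ligand at the receptor while also serving semaphorins. Vegfa (chr17:46327919-46342741) was at 47.9, 51.5, 46.3 and 52.3 CPM in Model and at 67.2, 64.5, 62.9 and 58.1 CPM in Treatment (0.35 ± 0.06, adjusted p = 0.0179). Vegfb was at 38.2, 39.4, 35.7 and 39.8 CPM in Model and at 44.4, 43.8, 51.9 and 56.2 CPM in Treatment (0.36 ± 0.08, adjusted p = 0.0385). Nrp1, neuropilin 1, was at 62.2, 62.8, 68.4 and 56.1 CPM in Model and at 50.2, 50.6, 43.2 and 46.8 CPM in Treatment (-0.39 ± 0.07, adjusted p = 0.0227). All 3 were apart between the groups, with Control means of 55.9 CPM for Vegfa, 43.0 CPM for Vegfb and 56.3 CPM for Nrp1 between the means of Model and Treatment. Of 36 angiogenesis genes tested 27 were positive, with a median of 0.17, and these 3 were the members that passed (8.33%, against 1.88% of all genes). Sema3f, a semaphorin that binds neuropilins and is outside the list, rose from 5.07 ± 1.25 to 9.30 ± 1.79 CPM (0.88 ± 0.18, adjusted p = 0.0286). Once GC and length trends were removed, neither Vegfb (0.21, adjusted p = 0.0972) nor Sema3f (0.74, adjusted p = 0.0683) passed.

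Among 50 genes of extracellular matrix and basement membrane 36 were positive, with a median of 0.15. Of the 50, 2 rose and 0 fell (4% called, against 1.88% of all genes). Col5a1, the main chain of fibrillar collagen V, was at 20.5, 15.3, 10.8 and 15.96 CPM in Model and at 44.6, 36.1, 20.7 and 33.1 CPM in Treatment (1.1 ± 0.20, adjusted p = 0.0199). Treatment replicate 3 was only just above Model replicate 1, and with the neocortical score as a covariate Col5a1 had 0.47 (adjusted p = 0.481). Col4a2, a chain of the collagen IV of basement membranes, changed by 0.36 ± 0.08 (adjusted p = 0.0358), with 51.3 to 62.2 CPM in Model and 60.6 to 76.6 CPM in Treatment. Its groups overlapped, and with GC and length trends removed it had 0.22 (adjusted p = 0.157). Col26a1, a collagen outside the list, rose from 2.42 ± 0.427 to 4.95 ± 0.466 CPM (1.03 ± 0.17, adjusted p = 0.0174), and Podn, a small leucine-rich proteoglycan of matrix, from 2.48 ± 0.523 to 5.05 ± 0.780 CPM (1.02 ± 0.21, adjusted p = 0.0277).

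Single immune genes passed, H2-T23, Cd46 and Rela, each as the one called member of its list among those described here. H2-T23 encodes Qa-1, a class I molecule that natural killer cells and T cells read. It was at 6.05, 4.52, 5.22 and 6.09 CPM in Model and at 10.2, 8.51, 8.94 and 8.36 CPM in Treatment (0.71 ± 0.15, adjusted p = 0.0301), without overlap and with Control at 4.13 to 6.99 CPM. Reads of class I genes can be shared among near-identical copies, so its level is uncertain. With GC and length trends removed it had 0.63 (adjusted p = 0.0536). It was the one called member of 22 class I and antigen processing genes tested (4.55%, against 1.88% of all genes). Of the 22, 18 were positive, with a median of 0.24. H2-D1 had 0.32 (adjusted p = 0.0624) and H2-K1 0.36 (adjusted p = 0.112), a pair chosen after their values were seen. The 8 class II genes tested had a median of 0.39 and 0 past the threshold in edgeR or DESeq2 (1 at an unadjusted p under 0.05 in edgeR), and without Treatment replicates 2 and 3 that median was -0.12.

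Cd46 (chr1:194719134-194774557), a membrane cofactor that limits complement, was at 17.8, 16.5, 16.2 and 16.6 CPM in Model and at 28.5, 22.4, 24.1 and 23.8 CPM in Treatment (0.56 ± 0.08, adjusted p = 0.0131, the smallest adjusted p of the comparison, shared with other genes). Control libraries, at 20.8 to 24.7 CPM, were above Model, 3 of 4 of them within the range of Treatment. Of 18 complement genes 11 were positive with a median of 0.16, and Cd46 was the one that passed (5.56%, against 1.88% of all genes). C1qb, a chain of the complement recognition protein made by microglia, had 0.33 ± 0.09 (adjusted p = 0.0808). Cd46 had 0.64 with GC and length trends removed (adjusted p = 0.00540) and 0.55 without Model replicate 2 or 3 (adjusted p = 0.0659 and 0.0647).

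Rela, the p65 subunit of the transcription factor NF-kB, was at 16.9, 16.6, 17.9 and 19.1 CPM in Model and at 21.0, 23.5, 26.7 and 21.8 CPM in Treatment (0.40 ± 0.08, adjusted p = 0.0305). With GC and length trends removed it had 0.25 (adjusted p = 0.0742). Its partner Nfkb1 had 0.02 ± 0.07 (adjusted p = 0.915) and Nfkbia, the inhibitor that NF-kB itself induces, 0.38 (adjusted p = 0.0589), a gene chosen after its values were seen. Of the 48 cytokine, chemokine and NF-kB genes listed 36 were tested, with a median of 0.11, and Rela was the one called (2.78%, against 1.88% of all genes). The cytokines Tnf, Il1b and Il6 did not pass the count filter: no library of the 8 held more than 1, 13 or 3 of their counts, so a change in them was not detectable at this depth. Of 41 interferon-stimulated genes 34 were positive with a median of 0.25, and 0 passed in edgeR or DESeq2, with 8 at an unadjusted p under 0.05 in edgeR. The member of smallest p was Ifitm1, at 0.466 to 0.987 CPM in Model and 1.21 to 1.87 CPM in Treatment (0.96 ± 0.29, adjusted p = 0.0982). The interferon median was 0.05 without Treatment replicates 2 and 3. Of 24 markers of T, B and NK cells 4 had enough reads to be tested; 3 of the 4 were negative, with a median of -0.10.

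**Figure D4:**
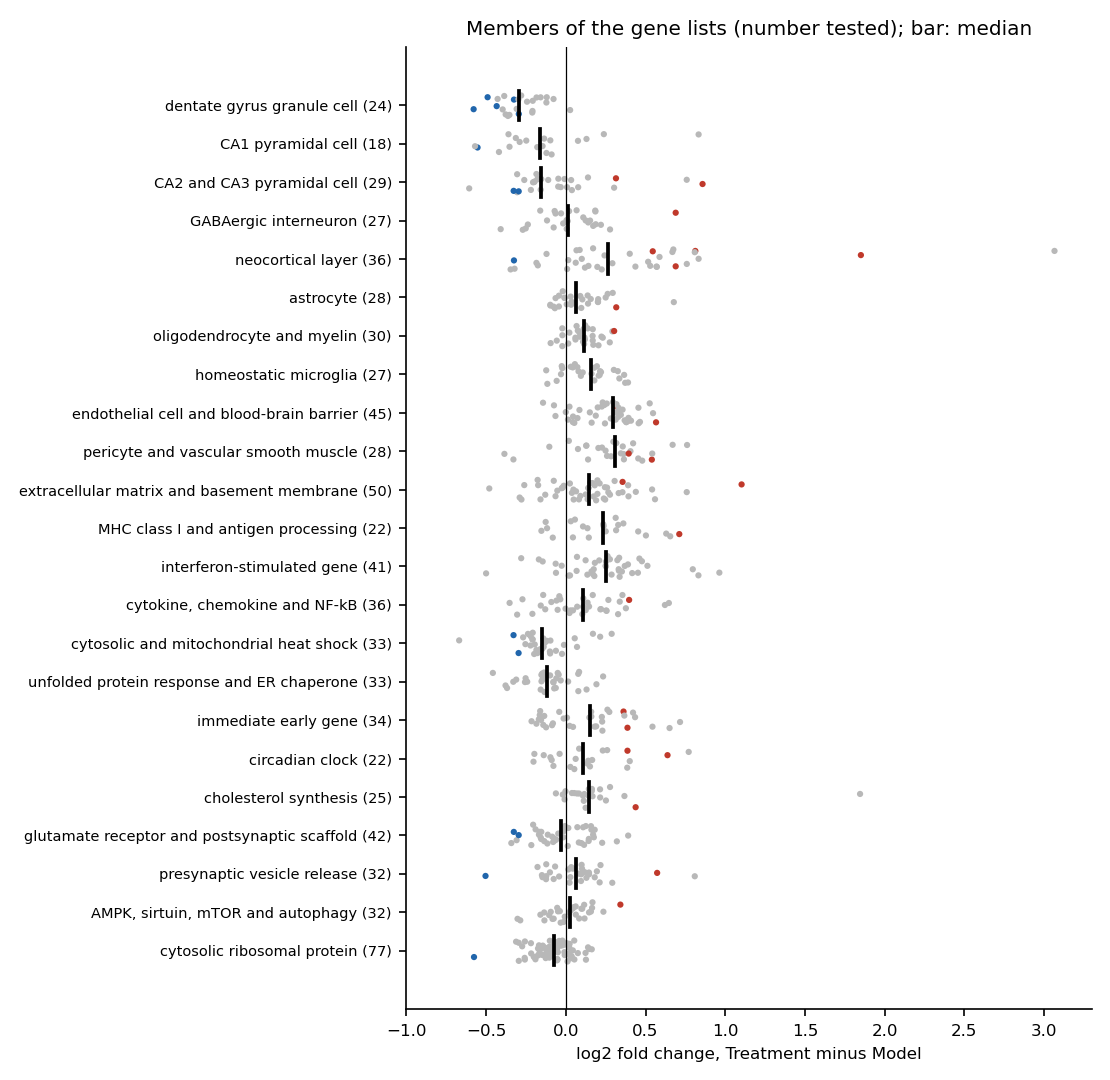
Log2 fold change of Treatment over Model for the members of 23 gene lists (number tested in parentheses); each point is a gene, red rose, blue fell, grey did not pass, and the black bar is the median of the list. The dentate gyrus list has its median at -0.30, the endothelial list at 0.30 and the heat shock list at -0.15.

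Chaperone genes were on balance lower, by little. Heat shock proteins fold client proteins in the cytosol and in mitochondria, and their genes are induced by the factor Hsf1 through heat shock elements in the promoter. Of 33 such genes 28 were below 0 and the median was -0.15. Of the 33, 2 fell and 0 rose (6.06% called). Among all genes 1.88% were called, and 0.704% were called lower. Hsp90aa1 (chr12:110657039-110662829), the inducible Hsp90 that also holds steroid receptors, was at 1244, 1359, 1223 and 1385 CPM in Model and at 1056, 935, 1101 and 1058 CPM in Treatment (-0.33 ± 0.06, adjusted p = 0.0231). Dnaja1, an Hsp40 that hands clients to Hsp70, was at 322, 350, 308 and 365 CPM in Model and at 272, 245, 290 and 289 CPM in Treatment (-0.30 ± 0.07, adjusted p = 0.0433). Neither overlapped between the groups, and in both the Control libraries (995 to 1119 and 249 to 285 CPM) were on the side of Treatment. Dnaja1 had -0.21 (adjusted p = 0.178) with GC and length trends removed, and Hsp90aa1 -0.27 (adjusted p = 0.0277).

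The promoter of Dnaja1 is shown because the gene is one of the pair that fell and a heat shock element core can be read in it. The sequence is the 250 bases before the first of 3 annotated starts in RefSeq (GRCm38.p6, chr4:40722218-40722467, plus strand), and the capitals mark the core GAANNTTC, 124 bases before the start. Hsp90aa1 has no entry in the promoter table.
Dnaja1: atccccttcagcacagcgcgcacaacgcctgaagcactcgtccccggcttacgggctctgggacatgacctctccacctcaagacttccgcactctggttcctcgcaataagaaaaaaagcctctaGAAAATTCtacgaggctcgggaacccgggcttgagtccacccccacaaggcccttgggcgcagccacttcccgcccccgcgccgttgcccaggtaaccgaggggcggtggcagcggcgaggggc
Both strands and both arrangements of the core (GAANNTTC and TTCNNGAA, palindromes that can overlap each other) were searched. The first is held by 6.69% of 32851 promoters of this length and either by 12.84%. The windows of the other 2 starts of Dnaja1 hold neither.

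Genes of the unfolded protein response, the corresponding programme of the endoplasmic reticulum, had a median of -0.12 with 26 of 33 negative and 0 past the threshold in edgeR (8 at an unadjusted p under 0.05; DESeq2 called 3 lower). Hsp90b1, the Hsp90 of that compartment, was at 386, 375, 384 and 441 CPM in Model and at 346, 312, 363 and 308 CPM in Treatment (-0.26 ± 0.07, adjusted p = 0.0705), without overlap. Hspa5, its main chaperone, was at 271 to 448 CPM in Model and 218 to 345 CPM in Treatment (-0.31 ± 0.15, adjusted p = 0.270), and its groups overlapped. Summed over the heat shock list, Model libraries stood at 7691 to 8495 CPM and Treatment libraries at 6437 to 7656 CPM, and the highest Treatment library was replicate 3.

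A pair of circadian clock genes, Dbp and Per1, were higher. The clock is a loop in which Bmal1 and Clock drive the Per and Cry repressors and output factors such as Dbp through E-boxes, and glucocorticoids also induce Per1. Dbp, a leucine zipper transcription factor, was at 37.6, 48.9, 53.6 and 53.4 CPM in Model and at 59.9, 80.2, 70.2 and 90.4 CPM in Treatment (0.64 ± 0.12, adjusted p = 0.0199). Per1 was at 57.8, 55.0, 57.7 and 57.6 CPM in Model and at 67.6, 88.1, 62.2 and 80.1 CPM in Treatment (0.39 ± 0.09, adjusted p = 0.0399). Both were apart between the groups, and in both Treatment varied more than Model. Control libraries were at 66.7 to 73.3 CPM for Dbp and at 61.7 to 72.4 CPM for Per1, within the range of Treatment except for 1 library of Per1 just below it. The time of day of sampling is not in the labels.

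Both promoters are shown, 250 bases before the start in RefSeq (GRCm38.p6), because the 2 genes are the clock members that rose; the capitals mark the E-box CACGTG in Per1, 166 bases before the first of 2 starts (chr11:69098699-69098948, plus strand). The Dbp window (1 start, chr7:45704997-45705246, plus strand) does not hold these letters.
Per1: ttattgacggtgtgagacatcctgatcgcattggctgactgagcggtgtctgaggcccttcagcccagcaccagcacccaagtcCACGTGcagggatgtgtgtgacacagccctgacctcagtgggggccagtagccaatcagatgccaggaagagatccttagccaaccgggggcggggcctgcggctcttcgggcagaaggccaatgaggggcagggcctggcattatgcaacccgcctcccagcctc
Dbp: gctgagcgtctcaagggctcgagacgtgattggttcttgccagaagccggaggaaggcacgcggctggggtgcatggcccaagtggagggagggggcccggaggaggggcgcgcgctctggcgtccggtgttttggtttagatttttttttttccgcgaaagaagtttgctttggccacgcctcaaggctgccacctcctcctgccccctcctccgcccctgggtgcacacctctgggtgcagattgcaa
CACGTG reads the same on both strands, and 6.02% of the 32851 promoters hold it. The window of the second Per1 start does not.

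Over the 22 clock genes tested 15 were positive with a median of 0.11, and 2 rose and 0 fell (9.09% called, against 1.88% of all genes). Clock had -0.20 (adjusted p = 0.201) and Bmal1 -0.20 (adjusted p = 0.237), a pair chosen after their values were seen. Among 34 immediate early genes, which neurons switch on with activity, 21 were positive with a median of 0.15. Of the 34, 2 rose, Per1 and Jund (5.88% called, against 1.88% of all genes). Jund, a subunit of the transcription factor AP-1, was at 135, 137, 128 and 145 CPM in Model and at 158, 170, 190 and 181 CPM in Treatment (0.36 ± 0.06, adjusted p = 0.0179), without overlap. Its transcript is 67.15% GC, and with GC and length trends removed it had 0.17 (adjusted p = 0.0724), Per1 had 0.25 (adjusted p = 0.154) and the median of the list was 0.02. Fos had -0.14 ± 0.28 (adjusted p = 0.844) and Arc, which regulates AMPA receptor uptake, 0.18 ± 0.11 (adjusted p = 0.426). Dbp had 0.48 (adjusted p = 0.0469) with the trends removed, and 0.64 and 0.69 without Model replicates 2 and 3 (adjusted p = 0.0838 and 0.0657).

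At the synapse, single genes went both ways. Stx1a, a SNARE protein of vesicle fusion, was at 81.9, 73.3, 72.0 and 88.6 CPM in Model and at 127, 96.8, 106 and 140 CPM in Treatment (0.57 ± 0.12, adjusted p = 0.0283), again with Treatment replicates 1 and 4 highest. Doc2b (chr11:75659792-75686875), a calcium sensor of spontaneous release, was at 111, 120, 147 and 120 CPM in Model and at 80.2, 87.4, 98.3 and 85.6 CPM in Treatment (-0.50 ± 0.08, adjusted p = 0.0174). Neither overlapped. They were the members that passed among 32 presynaptic genes (6.25%, against 1.88% of all genes), whose median was 0.06. With GC and length trends removed Stx1a had 0.46 (adjusted p = 0.0777), and with the neocortical score as a covariate 0.24 (adjusted p = 0.537). Doc2b had -0.24 (adjusted p = 0.408) with that covariate.

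Of 42 genes of glutamate receptors and their scaffold 2 fell, Nptx1 and Gria1, and 0 rose (4.76% called, against 1.88% of all genes). The median of the list was -0.03. Gria1, an AMPA receptor subunit, was at 933, 997, 1102 and 886 CPM in Model and at 738, 766, 835 and 785 CPM in Treatment (-0.33 ± 0.08, adjusted p = 0.0446). The groups were apart, and with GC and length trends removed Gria1 had -0.30 (adjusted p = 0.0724). With the neocortical score as a covariate it had -0.11 (adjusted p = 0.661). Among 22 genes of GABA receptors and chloride transport 0 passed in edgeR (7 at an unadjusted p under 0.05; DESeq2 called 2 higher and 4 lower). Kcnt1, a sodium-activated potassium channel, was the one called member of 41 potassium channel genes (2.44%, near the 1.88% of all genes) and rose from 54.4 ± 8.94 to 84.9 ± 9.70 CPM (0.64 ± 0.13, adjusted p = 0.0264); with the neocortical score as a covariate Kcnt1 had 0.25. Slc17a7, the vesicular transporter of most forebrain glutamate neurons, had 0.02 ± 0.07 (adjusted p = 0.940) and Gad1, which makes GABA, -0.07 ± 0.06 (adjusted p = 0.618). Without Model replicate 2 or 3 no gene passed over all, so no synaptic gene could.

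The genes described here for their place in depression research did not pass in the reported fit. Bdnf, the neurotrophin that antidepressants raise in many models, was at 30.1, 35.8, 41.6 and 47.2 CPM in Model and at 38.8, 29.0, 33.5 and 37.5 CPM in Treatment (-0.16 ± 0.12, adjusted p = 0.539). Its groups overlapped. Nr3c1, the glucocorticoid receptor, had -0.02 ± 0.07 (adjusted p = 0.942) and Sgk1, one of its targets, 0.12 ± 0.07 (adjusted p = 0.366). Fkbp5, a target that restrains the receptor, was at 63.8, 66.2, 73.9 and 62.2 CPM in Model and at 49.0, 55.2, 55.0 and 51.5 CPM in Treatment (-0.34 ± 0.08, adjusted p = 0.0530). These groups did not overlap, and Fkbp5 passed with GC and length trends removed (-0.37, adjusted p = 0.0345). Htr1a, the serotonin 1A receptor, was at 39.2 to 44.1 CPM in Model and 35.0 to 38.3 CPM in Treatment (-0.20 ± 0.06, adjusted p = 0.11), also without overlap. In edgeR 0 of 28 monoamine, 0 of 16 neurotrophin and 0 of 7 kynurenine pathway genes passed, with medians of 0.00, -0.11 and 0.03. At an unadjusted p under 0.05 there were 4, 7 and 0 of them, and in DESeq2 1, 3 and 0 passed.

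In lipid and energy metabolism single genes passed. Of the 25 cholesterol genes, which share the factor Srebf2 as a driver, 21 were positive with a median of 0.14. Lpl, the lipase of triglyceride-rich lipoproteins and a gene of the disease-associated microglia list, fell from 36.2 ± 2.96 to 27.8 ± 2.704 CPM (-0.38 ± 0.09, adjusted p = 0.0400), and had -0.31 (adjusted p = 0.0894) with GC and length trends removed. Of the 22 genes of that microglia list tested 13 were positive and 9 negative, with a median of 0.08. Lpl was the one called (4.55%, against 1.88% of all genes). Prkab1, a regulatory subunit of the energy sensor AMPK, was at 9.64 to 9.92 CPM in Model and at 12.4, 11.3, 12.6 and 13.2 CPM in Treatment (0.34 ± 0.08, adjusted p = 0.0405). It passed in none of the 8 fits that left out a Model or Treatment library, and with GC and length trends removed it had 0.26 (adjusted p = 0.106). The catalytic subunit Prkaa2 had 0.08 ± 0.10 (adjusted p = 0.711) and Sirt1, a deacetylase, -0.05 ± 0.10 (adjusted p = 0.83). Among the 32 AMPK, sirtuin, mTOR and autophagy genes the median was 0.03, and Prkab1 was the one called (3.12%, against 1.88% of all genes). In edgeR 0 of 24 Nrf2 and antioxidant genes passed (5 at an unadjusted p under 0.05), and DESeq2 called 1 higher.

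Glial lists moved little. Of 30 oligodendrocyte and myelin genes 25 were positive with a median of 0.11; Olig1, a factor of the lineage, changed by 0.30 ± 0.07 (adjusted p = 0.0446) with overlapping groups, and Mbp, a main protein of myelin, had 0.07 ± 0.07 (adjusted p = 0.649). Aldh1l1, a folate enzyme used as an astrocyte marker, was at 39.7 to 45.4 CPM in Model and at 49.4 to 54.3 CPM in Treatment (0.32 ± 0.07, adjusted p = 0.0398), without overlap, while Gfap, the filament of reactive astrocytes, had -0.04 ± 0.09 (adjusted p = 0.854). After removal of GC and length trends Olig1 had 0.15 (adjusted p = 0.244) and Aldh1l1 0.24 (adjusted p = 0.0793), and neither passed. Of 27 homeostatic microglia genes 21 were positive with a median of 0.16 and 0 passed in edgeR (11 at an unadjusted p under 0.05; DESeq2 called 2 higher). P2ry12, the purinergic receptor of resting microglia, had 0.16 ± 0.07 (adjusted p = 0.217) and did not overlap between the groups. In the adult neurogenesis list Ccnd2, the cyclin of dividing progenitors, fell from 99.8 ± 2.25 to 84.9 ± 3.96 CPM (-0.23 ± 0.05, adjusted p = 0.0393). Ccnd2 was the one called member of 23 (4.35%, against 1.88% of all genes). With GC and length trends removed it had -0.19 (adjusted p = 0.0537). Genes of ependymal cells, which line the ventricles, and of motile cilia were below 0 in 26 of 31 with a median of -0.26. In edgeR 0 passed (4 at an unadjusted p under 0.05), and DESeq2 called 1 higher and 2 lower. In 0 of the 31 were the groups apart (9.5% of all genes). The summed level overlapped, at 173.5 to 245.3 CPM in Model and 147 to 243.9 CPM in Treatment. Model replicate 2 had the highest score (0.38) and Treatment replicate 1 the lowest (-0.832).

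Genes of general cell function had small shifts. Of 77 cytosolic ribosomal protein genes 59 were negative with a median of -0.08 and 1 was called (1.30%, below the 1.88% of all genes); Rpl39 changed by -0.58 ± 0.12 (adjusted p = 0.0318) with overlapping groups, and its reads may be shared with processed copies in the genome. Of 79 nuclear-encoded respiratory chain genes 61 were negative, with a median of -0.10 and 0 past the threshold in edgeR (22 at an unadjusted p under 0.05; DESeq2 called 4 lower). Of 13 mitochondrially encoded mRNAs 9 were positive with a median of 0.11, and mt-Nd5, a subunit of complex I, was at 5927, 5693, 5676 and 5338 CPM in Model and at 7042, 6701, 6156 and 6952 CPM in Treatment (0.25 ± 0.05, adjusted p = 0.0283), apart between the groups. Eif3e, a translation initiation factor, fell from 78.8 ± 2.57 to 61.8 ± 5.13 CPM (-0.35 ± 0.06, adjusted p = 0.0199). Hnrnpc, which packages nascent transcripts, fell from 207 ± 6.22 to 171 ± 16.4 CPM (-0.28 ± 0.07, adjusted p = 0.0466). When GC and length trends were removed Eif3e had -0.29 (adjusted p = 0.0560) and Hnrnpc -0.22 (adjusted p = 0.0797), and neither passed.

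The genes with the smallest p-values were mostly outside the lists. Among those that rose, Fcho1, which starts clathrin-coated pits, was at 48.5, 42.5, 39.1 and 37.5 CPM in Model and at 69.4, 63.9, 62.0 and 63.5 CPM in Treatment (0.63 ± 0.08, adjusted p = 0.0131). Nrbp2, a pseudokinase, was at 133, 131, 120 and 125 CPM in Model and at 161, 170, 168 and 162 CPM in Treatment (0.37 ± 0.05, adjusted p = 0.0131). Zdhhc8, which attaches palmitate to synaptic proteins, rose from 72.6 ± 4.89 to 95.8 ± 1.99 CPM (0.40 ± 0.06, adjusted p = 0.0131). None of the 3 overlapped. Others of this group were Sh2d3c, an adaptor of the Cas family (0.63 ± 0.09), Dennd6b, an exchange factor of Rab GTPases (0.52 ± 0.08), Ltk, a receptor tyrosine kinase (0.69 ± 0.11), and Slc9a5, a sodium-proton exchanger (0.63 ± 0.10).

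Among those that fell, Slc7a14, a lysosomal membrane protein of the amino acid transporter family, was at 222, 234, 262 and 226 CPM in Model and at 182, 181, 169 and 174 CPM in Treatment (-0.42 ± 0.06, adjusted p = 0.0131). Kctd4, of a family of adaptors of ubiquitin ligases, fell from 97.6 ± 5.16 to 68.4 ± 4.04 CPM (-0.51 ± 0.08, adjusted p = 0.0148) and Pygo1, a coactivator of Wnt signalling, from 80.5 ± 2.68 to 62.0 ± 3.12 CPM (-0.37 ± 0.06, adjusted p = 0.0148). Each was apart between the groups. Among the larger decreases were those of Il16, a precursor of a T cell attractant (-0.52 ± 0.10, adjusted p = 0.0227), the anion exchanger Slc26a4 (-0.52 ± 0.10, adjusted p = 0.0245), the motor protein Kif26b (-0.52 ± 0.10, adjusted p = 0.0199) and the sodium-proton exchanger Slc9a4 (-0.51 ± 0.11, adjusted p = 0.0330). Lncppara, a long noncoding RNA, was at 3.69, 2.37, 3.50 and 2.83 CPM in Model and at 7.33, 5.83, 7.32 and 5.43 CPM in Treatment (1.06 ± 0.18, adjusted p = 0.0174), without overlap. Strand is not mentioned in the labels, so reads of neighbouring genes on the other strand cannot be told apart from it.

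**Figure D5:**
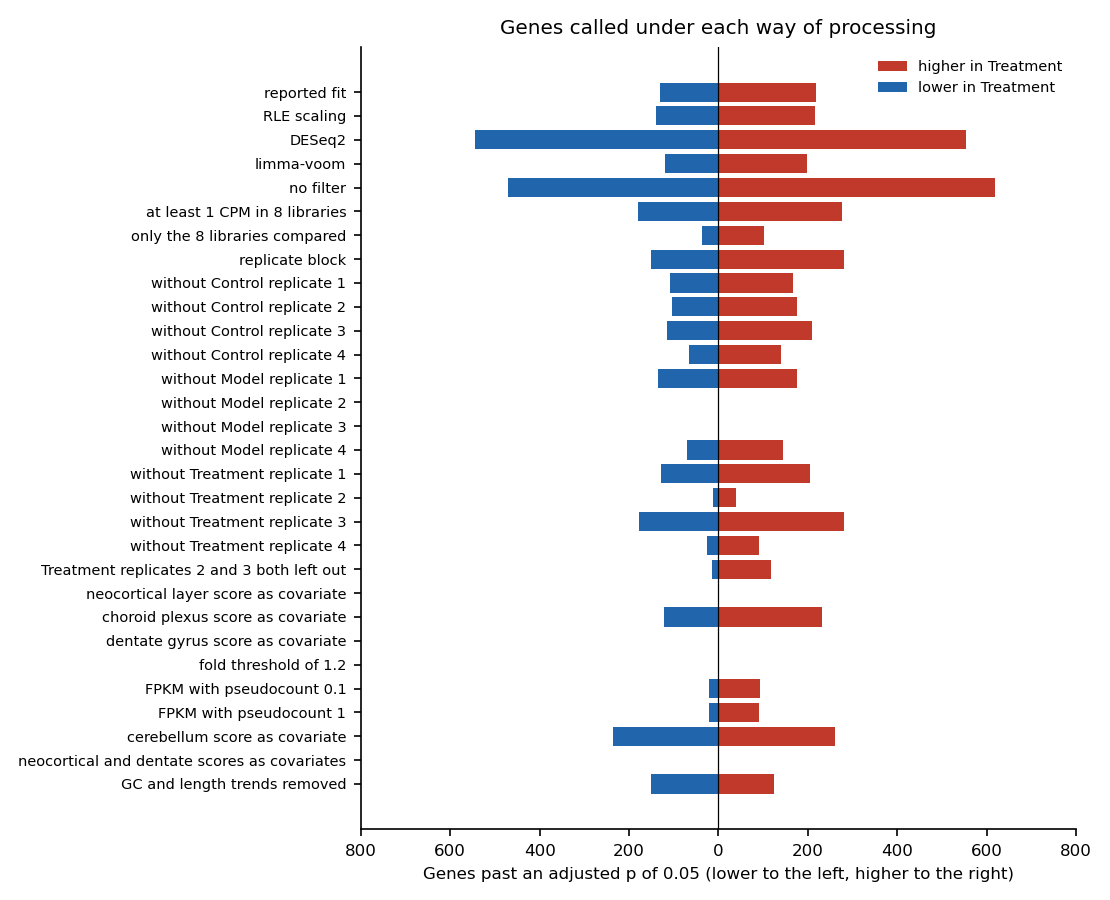
Genes past an adjusted p of 0.05 under each way of processing, with those higher in Treatment to the right and those lower to the left of 0. The reported fit has 219 and 131, DESeq2 554 and 545, and the fits without Model replicate 2, without Model replicate 3 and with the dentate score have 0.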

How the data were processed

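Per the labels' protocols, poly(A) RNA was selected with oligo(dT) and sequenced in pairs of reads. Per the submitters' processing notes, the tools were STAR 2.7.10a, Salmon 1.10.1, FastQC 0.12.1, cutadapt 3.4 and Trim Galore 0.6.7, and GRCm39 and mm39 are named as builds; their roles and the annotation are not given in the sources used here. The authors deposited an estimated count per gene and library, unscaled, of which 28.8% of nonzero values are not whole (tolerance 1e-06), and FPKM values scaled by length and library total. Library depth limits genes with few reads, and the biological coefficient of variation of 10.69% limits small changes.

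Estimated counts were rounded and fitted in R 4.3.3 with edgeR 4.0.16: filterByExpr, TMM, then a single quasi-likelihood fit over all 12 libraries with 1 coefficient for each group, contrast Treatment minus Model, Benjamini-Hochberg adjustment over all 18600 genes. Other tools were limma 3.58.1, DESeq2 1.42.0, statmod 1.5.0, data.table (version 1.17.8), Python 3.11.15, pandas 2.3.3 and matplotlib 3.10.9. SE is the fold change divided by the root of its test statistic, and CPM uses TMM-scaled sizes. A list score is the mean log2 CPM (prior count 2) of its members around the mean of the libraries. Transcript GC and length are those of a gene's longest entry in GENCODE vM21 (GRCm38), matched by gene identifier for 93.3% of genes tested. The deposited start and end of Gria1 (56902213 and 56906117) span fewer bases than the 5546 of that entry. Whether this bears on its counts was not tested. The edgeR fit was also tested on simulated data drawn from the fitted levels and spread. The other steps were not.

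Named genes are the 15 largest changes in each direction at a mean of at least 1 CPM without overlap, members of 54 lists that passed (up to 6, or the member of smallest p), the 10 smallest p in each direction and a fixed set of 26 genes; not all are printed, and some items are not reported here. Any other name is marked in the text as chosen after seeing values. The comparison, lists and alternatives were chosen with earlier results of these data known. Alternatives were other scalings, filters and tests, FPKM with limma, each library left out, a replicate block and tissue scores as covariates. GC and length offsets and the cerebellum and joint scores were added after seeing the data.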

Additional observations from a re-analysis of the deposited data

Results flagged for a closer look

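Each group of 4 libraries was examined for 1 library far from the other 3, in 84 genes and 168 groups; chance picks out about 1 in 20 groups, and 8 were picked out. Thsd4, a matrix protein that fell after poricoic acid A, stood at 62.4 CPM in Model replicate 3 and at 49.5 to 50.8 CPM in the other Model libraries. Dennd6b was at 56.7 CPM in Model replicate 1 against 48.5 to 49.5 CPM. Hsp90b1 was at 440.8 CPM in Model replicate 4 against 375 to 386 CPM, and Olig1 at 133.9 CPM in the same library against 113 to 117 CPM. Per1 was at 55.0 CPM in Model replicate 2 and at 57.6 to 57.8 CPM in the other 3, a gap small beside the difference from Treatment. Whrn was at 61.4 CPM in Treatment replicate 2 against 47.8 to 48.1 CPM. Htr1a was at 38.3 CPM in Treatment replicate 3 against 35.0 to 35.4 CPM, and Arc at 54.3 CPM in Treatment replicate 4 against 69.2 to 71.6 CPM.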

How the results depend on the processing

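The count of 350 genes was 355 with RLE scaling, 318 in limma-voom, 455 when 1 CPM was required in 8 libraries and 353 with a choroid plexus covariate. It moved by over 1.5 times in DESeq2 (1099), with no filter (1090), with only the 8 libraries compared (137), without Treatment replicates 2 and 3 together (132), with the neocortical score (2), the dentate score (0) or both scores (1) as covariates, against a fold threshold of 1.2 (0, with 725 at an unadjusted p under 0.05), and with FPKM at a pseudocount of 0.1 (114) or 1 (111). Leaving out each library in turn gave 0 to 459 genes: 310, 0, 0 and 216 without Model replicates 1 to 4, 333, 52, 459 and 116 without Treatment replicates 1 to 4, and 275, 281, 324 and 205 without Control replicates 1 to 4. Of the 350 genes 0 passed in all 8 fits without a Model or Treatment library. The 2 genes that passed with the neocortical score were Cbln3 and Gabra6, from the cerebellar list. The share of calls that were higher was 62.6%; it was 50.4% in DESeq2, 52.5% with the cerebellum score, 45.3% with GC and length trends removed, 73.7% with only the 8 libraries, 76.9% without Treatment replicate 2, 77.6% without Treatment replicate 4, 89.4% without replicates 2 and 3, and 80.7% and 81.1% with FPKM. With a replicate block 431 genes passed, 280 higher and 151 lower; same-numbered Model and Treatment libraries had correlations of 0.021, 0.111, 0.012 and -0.04 in their deviations, so the numbers were not taken to pair the samples. Among the fold changes of 84 genes over these alternatives, 1521 kept their direction and side of the threshold, 869 fell short of it, 27 came past it and 3 changed sign, none of them in a gene that passed: Ttr was -0.51 without Treatment replicates 2 and 3, and Bdnf 0.0137 with the dentate score and 0.0063 with both scores. The cause of these shifts was not tested.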
